A study of Mus musculus with 8 samples.

Results

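CLK, SRPK and DYRK kinases phosphorylate the arginine- and serine-rich proteins that choose splice sites, and the RNA of their genes was measured here in pancreatic islets of mice with and without an insulin-promoter Cre and floxed Sox9. The set holds 9 genes, taken by symbol from the deposited gene table: the CDC-like kinases Clk1, Clk2, Clk3 and Clk4, the SR protein kinases Srpk1 and Srpk2, the dual-specificity kinases Dyrk1a and Dyrk1b, and Rsrp1, which encodes a protein rich in arginine and serine. They are 9 of the 15985 gene symbols in the table. A normalized value above 1 in at least 4 libraries was required for testing, which 15960 symbols met, all 9 of these genes among them. The normalized value of a gene is its estimated number of reads, summed over its transcripts and divided by a size factor of the library.

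Islet RNA of 8 mice aged 13 to 16 months and of mixed strain was sequenced in bulk, with 1 library per animal. The 4 libraries labelled knockout (knockouts 1 to 4) came from Ins-Cre;Sox9fl/fl mice, in which Cre is driven by the insulin promoter and removes Sox9, a transcription factor of pancreas development, from insulin-producing beta cells before birth. The genotype was Sox9fl/fl in control 1, Sox9fl/+ in control 2, Sox9+/+ in control 3 and Sox9+/fl in control 4, with no Cre in any of these labels. Cre and the loss of Sox9 therefore cannot be told apart. Non-beta cells of the islet keep their Sox9 in this model.

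SR proteins bind exons through an RNA recognition motif and recruit the splicing machinery through a tail of arginine and serine repeats. SRPK kinases phosphorylate these tails mainly in the cytoplasm, which lets the proteins enter the nucleus, and CLK kinases add further phosphates there, which releases SR proteins from nuclear speckles to active genes. DYRK kinases also phosphorylate splicing factors, and DYRK1A in addition opposes calcineurin and NFAT signalling and promotes assembly of the cell-cycle repressor complex DREAM. DYRK1A is known in islets because its inhibitors let beta cells divide. Part of the Clk1 and Clk4 RNA is known to be held in the nucleus with introns retained, a store that can be spliced when CLK activity drops.

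The CLK family is also named LAMMER kinases, after a signature in the kinase domain. The coding stretch of that signature in Clk1, Clk2 and Clk4, and the matching stretch of Clk3, which departs from the signature, are shown because their bases show how far the RNA of the 4 genes can be told apart by sequence. It lies within 1 exon in each gene. Capitals mark the bases that differ from Clk1.
Clk1: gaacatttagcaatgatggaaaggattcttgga
Clk2: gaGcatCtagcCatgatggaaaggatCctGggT
Clk3: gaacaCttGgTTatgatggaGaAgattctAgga
Clk4: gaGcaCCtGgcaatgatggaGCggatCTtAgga
In GRCm38 these stretches lie at chr1:58412979-58413011 (Clk1, minus strand), chr3:89175407-89175439 (Clk2, plus strand), chr9:57752147-57752179 (Clk3, minus strand) and chr11:51280373-51280405 (Clk4, plus strand). Of the 33 bases, 6 differed from Clk1 in Clk2, 7 in Clk3 and 9 in Clk4. Over the whole annotated coding transcripts, Clk1 and Clk4 shared 4 words of 31 bases, the default word length of the pseudoaligner, which is 0.227% of the words of Clk1 and 0.178% of those of Clk4. Reads from the coding transcripts of Clk1 and Clk4 could thus be separated almost everywhere. Words found only in the other annotated transcripts of these genes were not compared.

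Promoter sequence is shown for Clk2, Clk4 and Rsrp1, whose values all lay higher in the libraries labelled knockout. The bases immediately before the RefSeq start were searched on both strands for the cyclic AMP response element (CRE) TGACGTCA and its core TGACG, to which CREB and related factors bind, and capitals mark every match.
Clk2: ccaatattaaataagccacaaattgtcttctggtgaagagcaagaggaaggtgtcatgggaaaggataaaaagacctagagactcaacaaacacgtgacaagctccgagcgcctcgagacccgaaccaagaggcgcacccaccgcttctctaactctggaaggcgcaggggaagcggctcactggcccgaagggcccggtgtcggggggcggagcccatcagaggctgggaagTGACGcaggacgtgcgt
Rsrp1: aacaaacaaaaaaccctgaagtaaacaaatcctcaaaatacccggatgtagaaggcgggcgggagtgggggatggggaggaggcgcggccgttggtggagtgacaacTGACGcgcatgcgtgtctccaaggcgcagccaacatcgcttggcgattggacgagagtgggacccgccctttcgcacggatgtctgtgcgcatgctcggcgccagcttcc
Clk4: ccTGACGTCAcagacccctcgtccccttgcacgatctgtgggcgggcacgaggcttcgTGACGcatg
These stretches are chr3:89164545-89164794, chr4:134923375-134923591 and chr11:51263047-51263113 of GRCm38.p6 (RefSeq), all on the plus strand. The RefSeq start of Clk4 lies inside the gene as annotated by GENCODE, which begins further upstream. Clk4 held the full element 65 bases before its start, and 1.55% of 32851 RefSeq promoters hold it within 250 bases. The core was found in the windows of Clk2 (17 bases before the start), Clk4, Rsrp1 (143 and 19 bases before the start) and Clk3, where 17.8% of all promoters have at least 1 match. The Rsrp1 match at 19 bases lies outside the stretch shown. In Clk3 the window overlaps a coding exon of another of its transcripts. The SOX core ACAATG was present before 1 of the RefSeq starts of Dyrk1a (8 bases before it) and in 10.7% of promoters. Its variant ACAAAG was present before 1 of the RefSeq starts of Dyrk1b (157 bases) and in 16.5%. The other windows of these genes held neither form. The heat shock element GAANNTTC was present in 0 of 13 windows of the 8 genes with an entry and in 6.69% of all promoters. Clk1 had no RefSeq promoter entry, so its promoter was not searched for any of these motifs. A match is a description of the letters only.

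The estimated depth was 13.1 to 26.2 M reads in controls and 11.0 to 19.1 M in libraries labelled knockout, with means of 18.9 ± 6.65 and 15.3 ± 4.44 (SD, n = 4; p = 0.371 by an exact permutation test, two-sided). In these libraries 1 read is worth a normalized value of 0.657 to 1.37, which is small beside the values of all 9 genes. Sox9 did not separate the groups, with values of 13.3 to 37.3 in controls and 11.7 to 36.6 in libraries labelled knockout (log2 difference -0.02 with an SE of 0.44, adjusted p = 0.989 in limma), and so does not check the labels. By other methods, the study describes reduced Sox9 in knockout islets (quantitative PCR) and its loss from insulin-positive cells (RNA in situ hybridization). The sum of 4 Y-linked genes was 117 in control 3 and 2367 to 2712 in the other 7 libraries, although the study describes male mice, so results are also given without control 3. Beta cell markers made up 31.7 to 39.2% of the control libraries and 28.6 to 35.6% of those labelled knockout. Of these markers, 4 of 10 had a positive log2 fold change, and 0 of 10 passed an adjusted p below 0.05 in limma. At an unadjusted p below 0.05 there were 3, all higher. Acinar markers, from the digestive tissue around islets, were all in the table, with Prss1 at 0 in at least 1 library, and 21 of 22 had a positive log2 fold change (0 adjusted, 2 unadjusted), with a share of 0.274 to 1.29% in controls and 0.795 to 1.91% in libraries labelled knockout. Over all genes tested, 10.7% had an unadjusted p below 0.05 in limma and 7167 of 15960 had a positive log2 fold change. In bulk RNA, fewer cells of a type and less RNA per cell cannot be told apart.

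Clk1 was the 1 of 9 members that passed the test over all genes. Its normalized value was 641, 1070, 778 and 666 in controls 1 to 4 and 1786, 1611, 1797 and 1534 in knockouts 1 to 4. All 4 libraries labelled knockout lay above all 4 controls, the lowest of them 1.43 times the highest control. Clk1 rose from 789 ± 197 to 1682 ± 130 (SD, n = 4), and its log2 fold change was 1.12 with an SE of 0.15 (95% CI 0.78 to 1.45, limma, adjusted p = 0.0326), which is 2.17-fold as a ratio of geometric means. It is 1 of 9 genes past this threshold, which is 0.0564% of the genes tested. It is 1 of 6 among these that were higher (0.0376%), 3 being lower (0.0188%), and it ranked 5 by p. Clk1 (ENSMUSG00000026034) lies on chromosome 1, 58410189 to 58424066 (GRCm38, minus strand). The call depended on the libraries used: without control 2 the log2 fold change was 1.28 (adjusted p = 0.000987), without control 3 it was 1.12 (adjusted p = 0.0596), and on leaving out any other library the adjusted p lay between 0.0690 and 0.132.

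**Figure D1:**
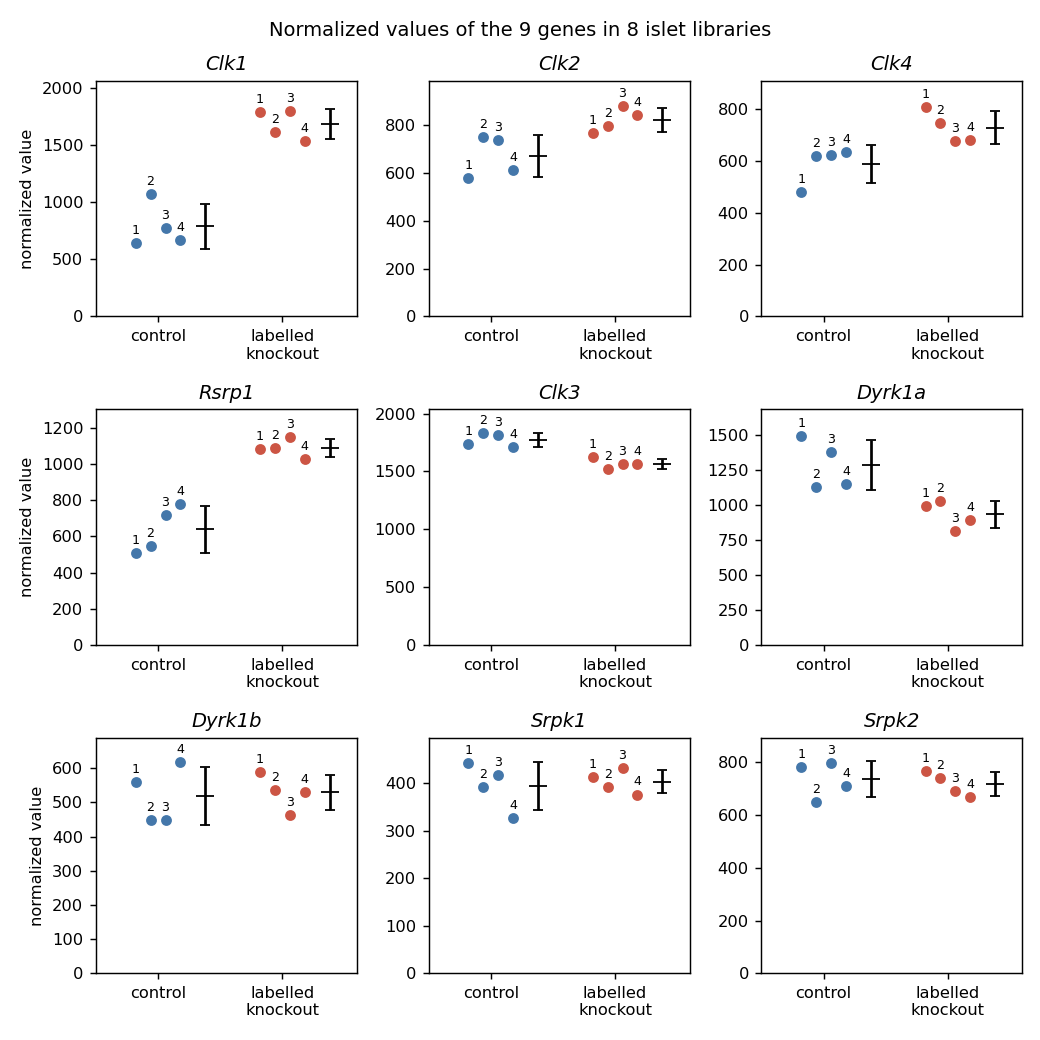
Normalized values of the 9 genes in each library (y axis, from 0), with controls in blue, libraries labelled knockout in red, replicate numbers above the points, and the mean ± SD of each group in black (n = 4). The groups do not overlap for Clk1, Clk2, Clk4 and Rsrp1, which are higher in libraries labelled knockout, nor for Clk3 and Dyrk1a, which are lower.

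Clk2 and Clk4, which act on the same SR proteins as Clk1, were higher in each library labelled knockout than in each control but missed the adjusted threshold. Clk2 had values of 578, 751, 738 and 611 in controls and 769, 798, 881 and 843 in libraries labelled knockout. The closest pair of libraries across the groups differed by a factor of 1.02. The means were 670 ± 87.9 and 823 ± 49.3, a log2 difference of 0.30 (SE 0.12, 95% CI 0.05 to 0.56, adjusted p = 0.376). Clk4 measured 480, 619, 625 and 635 in controls and 811, 748, 679 and 682 in libraries labelled knockout. Control 1 was lowest, and the gap between the groups was again narrow, a factor of 1.07. The means of Clk4 were 590 ± 73.1 and 730 ± 62.5 (log2 fold change 0.31, SE 0.12, adjusted p = 0.383). Clk2 (ENSMUSG00000068917) lies on chromosome 3 (89164795 to 89176921, plus strand) and Clk4 (ENSMUSG00000020385) on chromosome 11 (51261730 to 51281766, plus strand).

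Clk3, a CLK kinase expressed strongly in testis but also in other tissues, had the opposite sign. Its values were 1736, 1833, 1819 and 1712 in controls and 1624, 1519, 1565 and 1562 in libraries labelled knockout. The 4 libraries labelled knockout were below the 4 controls, and the spread within each group was small. The means were 1775 ± 60.0 and 1568 ± 43.1, a log2 difference of -0.18 (SE 0.09, 95% CI -0.38 to 0.02, adjusted p = 0.511). Clk3 (ENSMUSG00000032316, chromosome 9, 57750624 to 57765860, minus strand) shares 33.6% of its 31-base words with other genes, mostly with Edc3, a decapping factor gene that overlaps its end on the other strand. Edc3 itself had a log2 difference of -0.09 (SE 0.12, adjusted p = 0.825). The library kit kept strand, but how strand was used in pseudoalignment is not given in the sources used here, and the part of shared reads in the Clk3 value was not tested.

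Rsrp1 was the next largest difference in the set. Its values were 509, 546, 717 and 778 in controls and 1081, 1089, 1150 and 1027 in libraries labelled knockout. Controls spread over a wider range than the libraries labelled knockout, the lowest of which was 1.32 times the highest control. The means were 638 ± 130 and 1087 ± 50.6 (log2 fold change 0.79, SE 0.14, adjusted p = 0.0768), and Rsrp1 ranked 21 by p among all genes. It is 1 of 45 genes, or 0.282%, at an adjusted p below 0.1. Without control 3 its log2 fold change was 0.85 (adjusted p = 0.127), and over all libraries left out in turn it stayed between 0.69 and 0.89. Rsrp1 (ENSMUSG00000037266) lies on chromosome 4 (134923592 to 134927671, plus strand).

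The SRPK kinases showed no detectable difference between the groups. Srpk1 had values of 441, 391, 418 and 326 in controls and 413, 391, 430 and 376 in libraries labelled knockout. Srpk2 had 784, 651, 797 and 711 against 767, 742, 693 and 669. In both genes the libraries labelled knockout lay inside the range of the controls. The log2 fold changes were 0.04 for Srpk1 (SE 0.12, 95% CI -0.23 to 0.30, adjusted p = 0.940) and -0.03 for Srpk2 (SE 0.11, 95% CI -0.27 to 0.20, adjusted p = 0.943). Either interval excludes a change of the size seen for Clk1. Srpk1 (ENSMUSG00000004865) lies on chromosome 17 (28587648 to 28622709, minus strand) and Srpk2 (ENSMUSG00000062604) on chromosome 5 (23503264 to 23684617, minus strand), where 13.1% of its 31-base words are shared with other genes, mostly Kmt2e, a chromatin gene with a log2 difference of 0.03 (adjusted p = 0.952).

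Of the DYRK1 genes, Dyrk1a had lower values in libraries labelled knockout but missed the adjusted threshold, and Dyrk1b was not separated. Dyrk1a had values of 1497, 1127, 1381 and 1152 in controls and 995, 1032, 814 and 893 in libraries labelled knockout. Every library labelled knockout lay below every control, the nearest pair differing by a factor of 1.09. The means of Dyrk1a were 1289 ± 179 and 934 ± 99.1, a log2 difference of -0.46 (SE 0.13, adjusted p = 0.204). Dyrk1b, its close relative best known from skeletal muscle, measured 560, 449, 448 and 617 in controls and 588, 536, 463 and 529 in libraries labelled knockout, which lay inside the control range. Its log2 fold change was 0.04 (SE 0.13, 95% CI -0.25 to 0.33, adjusted p = 0.947). Dyrk1a (ENSMUSG00000022897) lies on chromosome 16 (94570010 to 94695517, plus strand) and Dyrk1b (ENSMUSG00000002409) on chromosome 7 (28179469 to 28187294, plus strand).

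Counted over the set, 4 of 9 genes were higher in all libraries labelled knockout than in all controls, against 2.67% of all genes tested, and 2 of 9 were lower in all of them, against 3.68%. Taken in either direction this is 6 of 9 genes, against 6.35%. At an unadjusted p below 0.05 there were 5 of 9, against 10.7% of all genes. The median log2 fold change was 0.31 for the 4 CLK genes, 0.0029 for the 4 SRPK and DYRK1 genes and -0.03 for all 15960 genes. Members were chosen with earlier results known, so these counts describe the set.

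**Figure D2:**
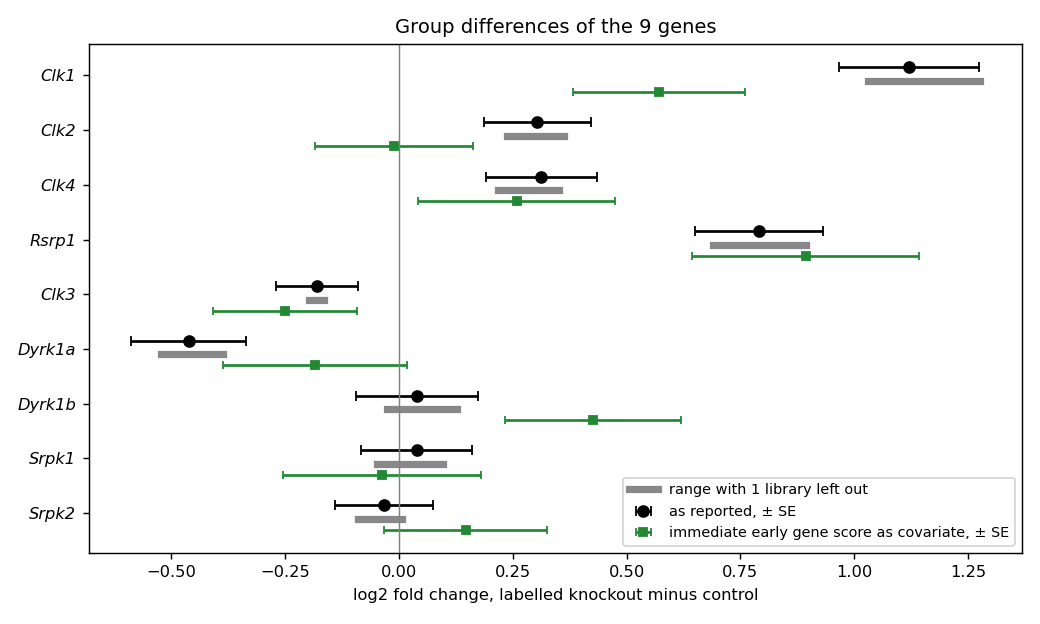
log2 fold change of each gene (x axis, labelled knockout minus control): black points with SE for the fit as reported, grey bars for the range with 1 library left out, and green squares with SE for the fit with the immediate early gene score as a covariate. Clk1 stands at 1.12 and at 0.57 with the covariate, Rsrp1 at 0.79 and 0.89, and Clk2 at 0.30 and -0.01.

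Within each library, CLK RNA was set against SRPK and DYRK1 RNA by subtracting the mean log2 values of the families, which removes any scaling shared by both. The difference was 0.02, 0.71, 0.42 and 0.36 in controls 1 to 4 and 0.82, 0.80, 0.98 and 0.88 in knockouts 1 to 4. All libraries labelled knockout were above all controls, with control 2 nearest to them, and the group means of 0.38 (SD 0.28) and 0.87 (SD 0.08) differed by 0.49. Without Clk1 the same quantity went from 0.42 to 0.67, a difference of 0.25, and the groups overlapped. The log2 difference of Clk1 and Clk3 was -1.20 on average in controls and 0.10 in libraries labelled knockout, and Clk1 against Dyrk1a differed between the groups by 1.58 on the log2 scale. These are scores over chosen genes and carry no test.

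The order of levels was read per kilobase of the longest annotated coding transcript, since reads accumulate with length. In controls the mean value per kilobase was 711 for Clk3, 439 for Clk1, 365 for Rsrp1, 311 for Clk2, 303 for Clk4, 224 for Dyrk1a, 205 for Dyrk1b, 113 for Srpk2 and 84.6 for Srpk1. In libraries labelled knockout Clk1 came first with 937, followed by Clk3 with 628, Rsrp1 with 621, Clk2 with 382, Clk4 with 375, Dyrk1b with 209, Dyrk1a with 162, Srpk2 with 111 and Srpk1 with 86.5. Clk1 exceeded Clk3 per kilobase in each of the 4 libraries labelled knockout and in 0 of 4 controls. This order depends on the length taken: with the median length of each gene's coding transcripts, Srpk2 came first in libraries labelled knockout with 1099, followed by Clk3 with 995 and Clk1 with 937, and Srpk1 stood at 395. Clk2 and Clk4 differed by less than their SD in both groups, as did Dyrk1a and Dyrk1b in controls (SD 31.2 and 33.1).

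A gene total of this kind adds all annotated transcripts, coding or not. Clk1 has 13 annotated transcripts (GENCODE M21), of which 1 is labelled protein coding, 7 retained intron and 2 nonsense-mediated decay. For Clk4 the numbers are 14, 4, 7 and 3, for Clk2 11, 5, 4 and 1, and for Clk3 9, 4, 4 and 1. Srpk1 has 6 retained-intron transcripts of 13, Srpk2 3 of 10, Dyrk1a 1 of 6, Dyrk1b 0 of 3 and Rsrp1 1 of 8. The values above therefore do not say which form of the Clk1 RNA made up the difference, and transcript values were not analysed here. The authors' technical variance of the read assignment, pooled over libraries, corresponds to an SD of 2.52% for Clk1, the lowest of the 9 genes, and of 8.08% for Clk3, the highest, with a median of 5.79% over 9750 genes with a mean value of at least 100.

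Immediate early genes, transcribed within minutes of a stimulus, moved with Clk1. Their score, the mean centred log2 value of 30 genes, was -0.99, 0.22, -0.50 and -0.98 in controls 1 to 4 and 0.42, 0.25, 0.98 and 0.60 in knockouts 1 to 4. Control 2, the highest control for Clk1, also had the highest score among controls, at nearly the level of knockout 2. By sign, 24 of the 30 genes were higher in libraries labelled knockout; 0 passed the adjusted threshold in limma, 22 had an unadjusted p below 0.05 (10.7% of all genes tested), and 14 were higher without overlap between groups (2.67% of all genes). The smallest p values were those of the transcription factor genes Klf6 (log2 fold change 1.33, SE 0.20, adjusted p = 0.0526) and Fosb (1.33, SE 0.27) and of the phosphatase gene Dusp1 (2.63, SE 0.51). With the score as a covariate the Clk1 difference was 0.57 (SE 0.19, adjusted p = 0.997) and the difference between the families 0.054. Clk2 stood at -0.01, Dyrk1a at -0.18 and Dyrk1b at 0.43 in that fit, while Rsrp1 stood at 0.89 (SE 0.25) and Clk4 at 0.26 (SE 0.22). With this covariate 0 of 15960 genes passed in limma and 612 had an unadjusted p below 0.05. Among these 612 were the members Clk1 (unadjusted p = 0.0115 in limma), Rsrp1 (0.00443) and Dyrk1b (0.0499). The score itself does not overlap between the groups, so that the part of the early gene response and that of the genotype in the Clk1 difference cannot be told apart.

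**Figure D3:**
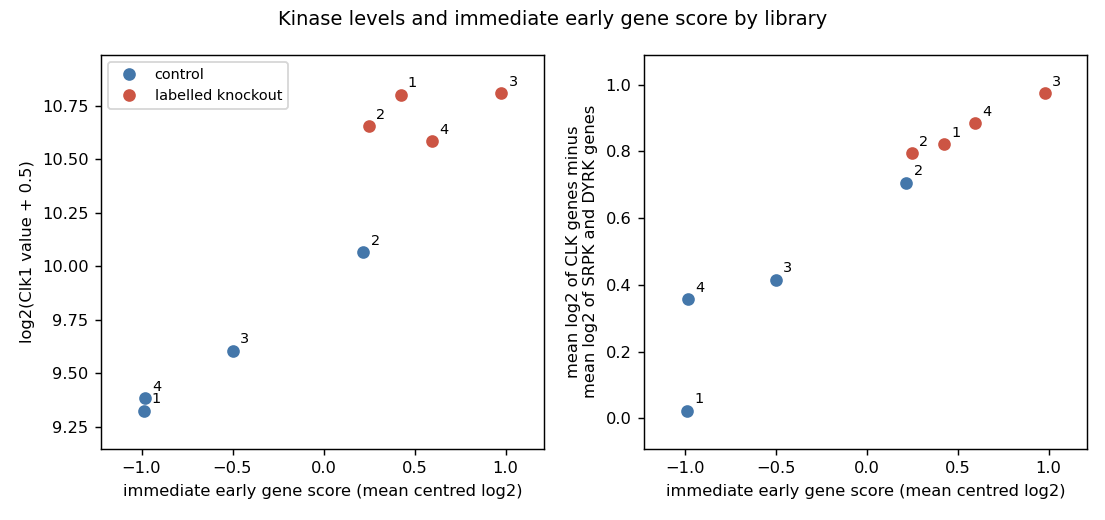
Immediate early gene score of each library (x axis, mean centred log2 value) against log2(Clk1 value + 0.5) on the left and against the CLK minus SRPK and DYRK difference on the right, with controls in blue, libraries labelled knockout in red and replicate numbers beside the points. Control 2 (score 0.22) has the highest Clk1 value of the controls, and knockout 2 (score 0.25) lies beside it on the x axis with a Clk1 value of 1611 against 1070.

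Genes were ranked by how alike their libraries were to those of Clk1 after each group mean had been removed, over 8 libraries and 9749 genes. The 5 closest were Tut1, a terminal uridylyltransferase (r = 0.976), Tiparp, a mono-ADP-ribosyltransferase (0.947), the early genes Egr1 (0.945) and Jun (0.936), and C2cd4b, an islet-expressed gene (0.935). Tut1 had values of 412, 551, 435 and 410 in controls and 443, 431, 448 and 401 in libraries labelled knockout, with a log2 difference of -0.06 (adjusted p = 0.897). It thus followed Clk1 within the groups without the difference between them, whereas Jun and Egr1 had log2 fold changes of 2.21 and 2.54 (adjusted p = 0.240 and 0.203). Among the members, the group-centred r with the early gene score was 0.89 for Clk1, 0.87 for Clk2, 0.65 for Clk3, 0.14 for Clk4 and -0.19 for Rsrp1. It was 0.21 for Srpk1, -0.64 for Srpk2, -0.63 for Dyrk1a and -0.82 for Dyrk1b. Clk1 had an r of 0.74 with Clk3 and of 0.73 with Clk2, and Srpk2 had an r of 0.85 with Dyrk1a. Dyrk1b had an r of -0.91 with Clk2, the largest in size of all pairs of members, and of -0.66 with Clk1. These correlations rest on 8 libraries of unequal depth that share 1 scaling each, and control 2 is the library farthest from its group mean for Clk1.

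Heat shock genes, which respond to unfolded protein in the cytosol, showed a similar but less separated pattern. Their score over 18 genes was -0.17, 0.05, 0.20 and -1.07 in controls and 0.23, 0.12, 0.55 and 0.09 in libraries labelled knockout, and the groups overlapped. The log2 fold changes of the 3 genes with the smallest p were 1.004 for Dnajb4, 1.97 for Hspa1a and 1.68 for Hspa1b, and 0 of 18 passed the adjusted threshold in limma (5 at an unadjusted p below 0.05, all higher, against 10.7% of all genes in either direction). With this score as a covariate, chosen after the data were seen, Clk1 stood at 0.96 (adjusted p = 0.156) and Rsrp1 at 0.89. With the acinar score as a covariate Clk1 stood at 1.32 (adjusted p = 0.0228) and Rsrp1 at 0.77.

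The substrates of these kinases were counted next. Of 13 SR and TRA2 protein genes, 0 passed the adjusted threshold in limma, 6 were higher and 1 lower at an unadjusted p below 0.05, against 10.7% of all genes in either direction, and the median log2 fold change was 0.27, against -0.03. Tra2b, a splicing activator with arginine and serine repeats at both ends, had values of 1202, 1611, 1207 and 1144 in controls and 1766, 1778, 2073 and 1816 in libraries labelled knockout (log2 fold change 0.54, SE 0.12, adjusted p = 0.145). Srsf7, an SR protein with a zinc knuckle, overlapped between groups (log2 fold change 0.62, SE 0.20, adjusted p = 0.288). Srsf5 went the other way, with 6079, 6549, 8558 and 7436 in controls and 5620, 5815, 5268 and 5443 in libraries labelled knockout (log2 fold change -0.36, SE 0.12, adjusted p = 0.310). All 4 libraries labelled knockout lay below the 4 controls for Srsf5 and above them for Tra2b.

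Among 22 other splicing proteins with arginine and serine repeats, 0 passed the adjusted threshold in limma, 6 were higher at an unadjusted p below 0.05 and 0 lower (10.7% of all genes in either direction), and the median was 0.11. Luc7l3, a relative of a yeast U1 component, had 503, 636, 601 and 595 in controls and 799, 764, 824 and 727 in libraries labelled knockout, with no overlap (log2 fold change 0.42, SE 0.11, adjusted p = 0.189). Bclaf1 and Snrnp70, the gene of the U1-70K protein, each differed by 0.31 on the log2 scale (adjusted p = 0.308 and 0.348). Of 13 phosphatases, nuclear carriers and kinase partners, 10 had a negative log2 fold change, 0 passed in limma and 1 had an unadjusted p below 0.05, against 10.7% of all genes. That gene was Fam53c, whose protein is known as a binding partner of DYRK1 kinases, with 1745, 1405, 1527 and 1518 in controls and 1108, 1210, 1066 and 1176 in libraries labelled knockout (log2 fold change -0.44, SE 0.10, adjusted p = 0.148). The partner Dcaf7 and the import receptor Tnpo1 had log2 fold changes of -0.24 and -0.28.

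Related kinases and genes of the pathways on which DYRK1A acts had mostly negative log2 differences, as did the whole table, where 7167 of 15960 were positive. Of 11 related kinases tested from a list of 12, 0 passed in limma and 3 were lower at an unadjusted p below 0.05, 7 were negative, and the median was -0.10. Hipk3, a DYRK-related kinase known in beta cells, had 4709, 3038, 3695 and 3526 in controls and 2700, 2665, 2245 and 2609 in libraries labelled knockout, without overlap (log2 fold change -0.54, SE 0.14, adjusted p = 0.175). Hipk1 and the transcription kinase Cdk13 had log2 fold changes of -0.35 and -0.27. Of 19 calcineurin, NFAT and DREAM genes, 15 were negative, 0 passed in limma, 3 were lower at an unadjusted p below 0.05 and 5 were lower without overlap, with a median of -0.16. Over all genes 10.7% had such a p in either direction, so that the 3 of 19 here and the 3 of 11 kinases are read against that share, and 3.68% were lower without overlap. Rcan1, a calcineurin inhibitor that is itself an NFAT target, had 707, 869, 832 and 684 in controls and 595, 588, 525 and 556 in libraries labelled knockout (log2 fold change -0.44, SE 0.11, adjusted p = 0.181). Rcan2 and Nfatc2 had log2 fold changes of -0.36 and -0.32.

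**Figure D4:**
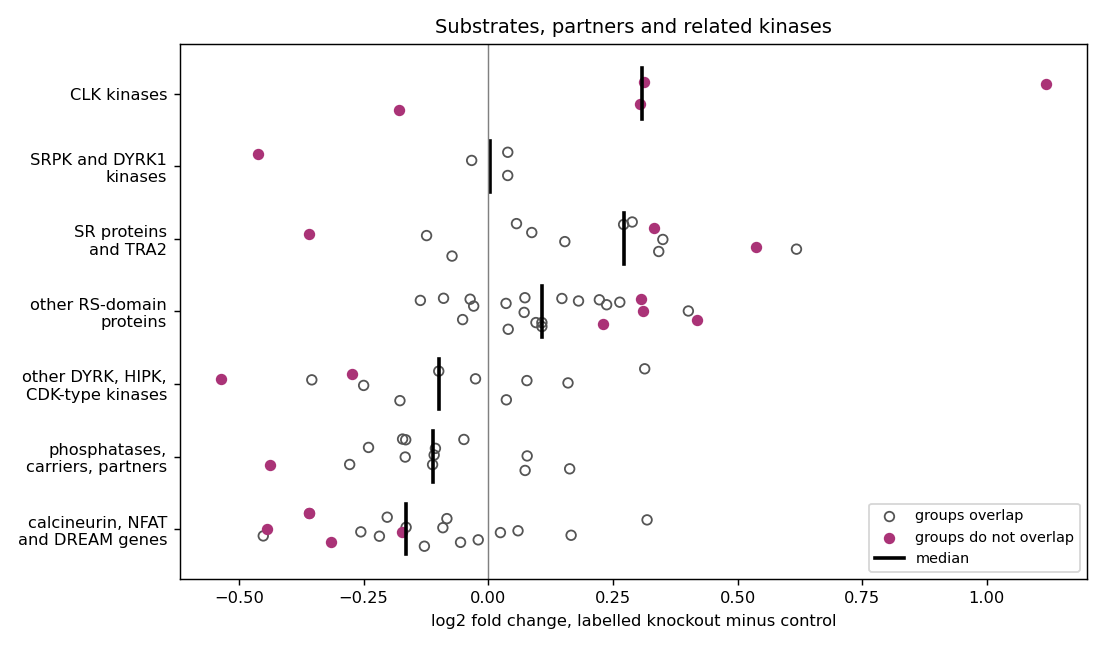
log2 fold change (x axis, labelled knockout minus control) of every tested gene of the CLK and SRPK or DYRK1 families, their substrates, related kinases, partners and genes of DYRK1A-related pathways, with 1 point per gene, filled where the groups do not overlap, and the list median as a bar. Medians run from 0.31 for the CLK kinases to -0.16 for the calcineurin, NFAT and DREAM genes, against -0.03 for all genes, and Clk1 at 1.12 lies apart from the other points.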

How the data were processed

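Gene-level values of 8 mouse islet libraries were analysed, 4 controls and 4 labelled knockout, grouped and numbered by the sample labels, which give separate animals. Libraries were made by the authors with a KAPA stranded kit from RNeasy-extracted RNA, sequenced on a HiSeq instrument, trimmed with cutadapt (1.13) and quantified with kallisto (0.46.1) on the Ensembl GRCm38 transcriptome, and sleuth summed transcripts to genes. Each of the 8 deposited library columns holds a signal, the estimated reads of a gene divided by the authors' size factor of the library. The deposited technical variance (tech_var, a sleuth term of unit other, natural log scale, pooled over libraries) was used as the authors' value. The other deposited columns hold the authors' own differences, p-values and q-values and were not used. The table has 16684 lines for 16208 Ensembl identifiers and 15985 symbols. Of these symbols, 216 have more than 1 line; repeated lines were dropped, and 47 symbols were summed over distinct lines.

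Values were compared as log2(value + 0.5) with limma (3.58.1, R 4.3.3, statmod 1.5.0) with a trended, robust prior and no term beside group. Tests were two-sided, with p-values adjusted by Benjamini and Hochberg over 15960 genes and a threshold of 0.05. Fold changes on this scale slightly understate those of low genes. Depth was estimated from the step between low values, and 64.9 to 71.2% of these lay within 0.05 of a whole read, so that counts were not recovered and count models were not used. Intervals are 95% limits of the fit. The fit was tested on simulated data. Names and coordinates are from GENCODE M21 and promoters from RefSeq, which matched 8 of 9 genes, all but Clk1. Members and gene lists were chosen with earlier results of these data known. Named genes are the members, up to 3 genes of each list by smallest p, Sox9, and the 5 genes most like Clk1 among those with a mean of at least 100. Alternatives changed the pseudocount, filter, scaling, prior, block, covariates and libraries.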

Additional observations from a re-analysis of the deposited data

Results flagged for a closer look

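Clk4 in control 1 stood apart from the other controls. Its normalized value was 480.4, against 619 to 635 in controls 2 to 4, a gap that takes up most of the range of the group. The limit used for such gaps (Dixon's 95% critical value) is passed by chance in about 1 in 20 groups. Control 1 also had the lowest value of Clk1 and Clk2 among the controls, 641 and 578. Without control 1 the log2 fold change of Clk4 was 0.22, against 0.31 with it.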

How the results depend on the processing

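Clk1 kept its direction under all alternatives run and its adjusted p stayed below 0.05 under pseudocounts of 0.1, 1 and 5, both filters, median-of-ratios scaling, a trended prior that was not robust, the acinar covariate, without control 2, and without control 2 and knockout 2. It missed the threshold with upper-quartile scaling (log2 fold change 1.18, adjusted p = 0.0503), with a prior neither trended nor robust (1.12, 0.253), with the replicate block (1.12, 0.0528), with the immediate early gene score (0.57, 0.997) and with the heat shock score (0.96, 0.156). Leaving out 1 library at a time gave 1.03 to 1.28 for Clk1 and 0.38 to 0.60 for the CLK against SRPK and DYRK difference, which was 0.054 with the early gene score. The number of genes past the threshold, 9 as reported, was 14 with a pseudocount of 1 or 5, 4 with upper-quartile scaling, 1 with a prior neither trended nor robust, 3 with the replicate block, 4 with the acinar score, 0 with the early gene score (612 at an unadjusted p below 0.05), 4 with the heat shock score, 44 without control 2 and knockout 2, and 1 to 58 with 1 library left out. Same-numbered libraries did not deviate together (r of -0.16, -0.03, -0.12 and 0.07). This gives no sign that the numbers pair animals, but so few libraries cannot exclude a pairing.

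Clk2 turned to -0.010 with the early gene score. The genes near 0 changed sign in places: Srpk1 to -0.037 (early gene score) and -0.10 (heat shock score), Srpk2 to 0.0044 (median-of-ratios), 0.025 (upper quartile) and 0.15 (early gene score), and Dyrk1b to -0.077 (acinar score) and -0.033 (control 2 and knockout 2 left out). With 1 library left out their ranges were -0.049 to 0.10, -0.091 to 0.0069 and -0.026 to 0.13. The other 5 genes kept their sign throughout. Without control 3 the log2 fold changes were 0.35 for Clk2, -0.17 for Clk3, 0.34 for Clk4 and -0.42 for Dyrk1a. They were 0.07 for Srpk1, 0.0069 for Srpk2 and -0.026 for Dyrk1b. The CLK against SRPK and DYRK difference was 0.51 without control 3. The heat shock score and the joint removal of control 2 and knockout 2 were chosen after seeing the data, and the cause of each change was not tested.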

Other observations

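The spread between animals was smaller in libraries labelled knockout for each of the 9 genes. The median coefficient of variation of the 9 was 13.1% in controls and 6.28% in libraries labelled knockout. Over the 9750 genes with a mean value of at least 100 the medians were 13.8% and 12.4%, and 58.1% of genes had the smaller spread in libraries labelled knockout. The controls comprise 3 Sox9 genotypes by number of floxed alleles, and the libraries labelled knockout 1. The part of genotype in the spread was not tested, and the 9 genes share the same libraries, so they are not independent observations.

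Of the nuclear-retained noncoding RNAs listed as markers of nuclear RNA, 1 of 6 was tested. Snhg11 had a log2 fold change of 0.50 and did not pass the adjusted threshold in limma, nor an unadjusted p of 0.05. The other marker lists were counted the same way, against 10.7% of all genes at an unadjusted p below 0.05 and 7167 of 15960 positive. Endothelial markers were positive in 11 of 11 genes (0 adjusted, 2 at an unadjusted p below 0.05, both higher), stellate and fibroblast markers in 11 of 11 (0 and 0), macrophage markers in 8 of 12 (0 and 1), duct markers in 2 of 10 (0 and 1), and markers of alpha, delta and PP cells in 1 of 7 (0 and 1). The gene with an unadjusted p below 0.05 was lower in libraries labelled knockout in each of the last 3 lists. Their part in the values of the kinase genes was not tested.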
